A study of Mus musculus with 74 samples.

Results

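Retroviral delivery of MEF2D-VP16 into the DO11.10 mouse T cell hybridoma was followed on 4 arrays, and a set of 4 arrays of the same cells carrying the empty virus, called MSCV_B here, is its control. These are 8 of the 74 two-colour arrays of the series, chosen by their descriptions and not by any measured value. Every hybridoma array carries RNA of untreated hybridoma cells as its second colour, so each of its values is a log2 ratio of transduced over untreated cells. MEF2D-VP16 RNA was labelled with Cy5 on replicates 1 and 3 (slides 21 and 11) and with Cy3 on replicates 2 and 4 (slides 22 and 12), and MSCV_B RNA with Cy5 on replicates 1 and 2 (slides 1 and 2) and with Cy3 on replicates 3 and 4 (slides 3 and 4). DO11.10 hybridoma cells are an immortal fusion line that keeps the T cell receptor of a single T cell. For setting the fusion beside other constructs, 10 arrays of HDAC7-VP16, 12 arrays of a further empty-virus set (MSCV_A) and 4 arrays of Nur77 in the same hybridoma were used. The sources used here do not give whether replicates are separate transductions, which part of MEF2D the fusion holds or whether transduced cells were sorted, so p-values measure the spread between these arrays, which may be technical.

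MEF2D is a MADS-box transcription factor that binds AT-rich sites and, in resting T cells, recruits class IIa histone deacetylases such as HDAC7, which keep its target genes silent. T cell receptor and calcium signals export these deacetylases from the nucleus, and MEF2 targets such as Nr4a1, the gene of the orphan nuclear receptor Nur77, are then transcribed. VP16 is a strong activation domain of a herpesvirus protein, so a fusion of MEF2D with VP16 is built to activate at MEF2 sites whether or not a deacetylase is bound. In developing T cells MEF2 factors and HDAC7 are known for their part in negative selection.

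The MEF2D-VP16 arrays resembled each other in either dye orientation, with correlations across probes of 0.658 and 0.723 for pairs of the same orientation and of 0.437 to 0.634 for opposite pairs. The MSCV_B arrays correlated at 0.675 and 0.680 in the same orientation, but at -0.288 to -0.182 in opposite orientations, and each fit carries a dye term. For MSCV_B dye orientation coincides with the slide pairs, so a dye effect, a slide effect and a ratio turned the other way on replicates 3 and 4 cannot be told apart. The deposited values are taken as log2 of transduced over untreated RNA on every array, a direction the files do not state. With the sign of replicates 3 and 4 turned, MSCV_B differed from untreated cells at 2572 probes, against 341 as deposited. Of 136 probes at least 1 log2 unit from 0 on all 4 MEF2D-VP16 arrays, 129 had the same sign on all of them, and for MSCV_B this held for 14 of 15 probes. Ratios carry no level, so fewer cells with the construct and a smaller change per cell cannot be told apart. Construct and slide cannot be told apart either, since no slide holds both groups. The titles of all HDAC7-VP16 and MSCV_A arrays carry a number before the slide number, which those of MEF2D-VP16 and MSCV_B lack. With MSCV_A as control, the empty-virus set and the kind of slide therefore change together.

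Over MSCV_B, 2067 of 16463 probes (12.6%) passed an adjusted p of 0.05 (limma, Benjamini-Hochberg) and are termed called, 1053 higher (6.40%) and 1014 lower (6.16%). Below, "rose" and "fell" are used of genes called in this comparison, and where a gene has more than 1 probe its values are those of the probe listed first. Against untreated cells directly, MEF2D-VP16 had 1283 probes higher (7.79%) and 1317 lower (8.00%), 15.8% in all. MSCV_B itself stood away from untreated cells at 341 probes (2.07%), 118 higher (0.717%) and 223 lower (1.35%). Of the 2067 probes called over MSCV_B, 1655 (80.1%) were called in the same direction over untreated cells, which uses the same MEF2D-VP16 arrays. Of the others, 411 were not called over untreated cells and 1 was called in the opposite direction. For 108 of the 411, MSCV_B had itself moved from untreated cells in the opposite direction. Counts for the gene lists are therefore given over both references, and a change with no reference named is over MSCV_B. As a measure for the list counts below, 6.40% of all probes rose and 6.16% fell over MSCV_B, and a list with shares near these does not stand out from all probes.

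**Figure D1:**
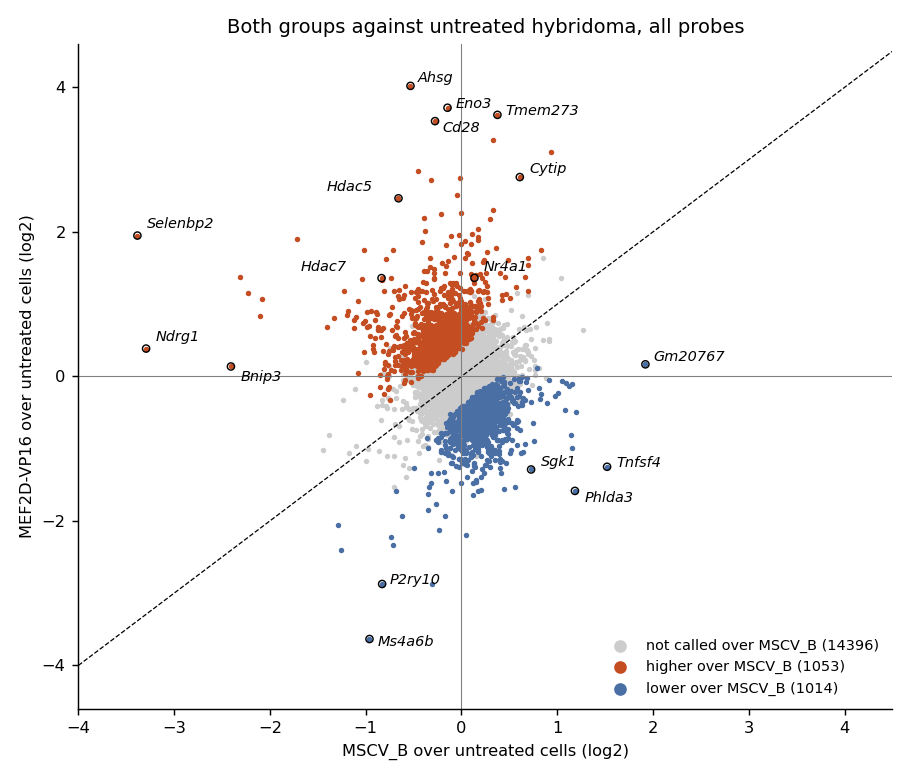
Each point is a probe, with its log2 ratio of MEF2D-VP16 over untreated cells on the vertical axis and of MSCV_B over untreated cells on the horizontal axis (4 arrays each); orange and blue points were called higher and lower over MSCV_B, and the dashed line marks equal ratios. Ahsg, Eno3 and Cd28 lie high near the middle of the horizontal axis, whereas Ndrg1 lies far left at -3.29 in MSCV_B and close to 0.38 with MEF2D-VP16.

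Within the MEF2 and deacetylase family itself, MEF2D-VP16 raised the class IIa genes Hdac5 and Hdac7. Hdac5 stood at 2.52, 2.61, 2.10 and 2.63 on the MEF2D-VP16 arrays, against -0.64, -0.58, -0.75 and -0.65 on the MSCV_B arrays. The groups were far apart, and the change was 8.71-fold (log2 change 3.12, SE 0.14, adjusted p = 3.01e-06). Hdac7 stood at 1.42, 1.58, 1.17 and 1.27 with MEF2D-VP16, against -1.16, -0.92, -0.34 and -0.92 with MSCV_B. Again no array of either group reached the other, and Hdac7 rose 4.58-fold (2.19, SE 0.16, adjusted p = 6.74e-05). Over untreated cells Hdac5 was at 2.46 and Hdac7 at 1.36, both called, and MSCV_B itself was lower than untreated cells for Hdac5 (-0.66) and Hdac7 (-0.83). With the 12 MSCV_A arrays as control in place of MSCV_B the changes were 2.37 for Hdac5 and 1.23 for Hdac7.

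Most other members of this list were not called. Of 11 measured genes, 3 rose and none fell, where 6.40% and 6.16% of all probes did, and over untreated cells 2 were higher. Mef2b rose by 0.56 over MSCV_B (adjusted p = 0.0175), but was not called over untreated cells (0.19), and it stood at -0.08 with MSCV_A as control. Mef2d's own probe was at 0.15, 0.20, -0.16 and -0.25 with MEF2D-VP16, against 0.10, -0.25, -0.07 and 0.32 with MSCV_B, so the groups overlapped, and whether this probe lies in the stretch the construct carries is not known here. Mef2c (-0.17), Hdac9 (0.11), the calcineurin subunit genes and Camk4, whose kinase phosphorylates class IIa deacetylases, were not called. Among 9 other deacetylases and corepressors, Tbl1xr1 (-0.60), a subunit of the NCoR corepressor complex, and the sirtuin gene Sirt1 (-0.53) fell and none rose, and neither was called over untreated cells or against the 16 empty-virus arrays of both sets.

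Nr4a1 was the only Nr4a gene called. It stood at 1.04, 1.23, 1.37 and 1.82 with MEF2D-VP16, against 0.00, -0.12, 0.68 and -0.01 with MSCV_B, and the groups did not overlap. The rise was 2.34-fold (1.23, SE 0.19, adjusted p = 0.00264), and 1.36 over untreated cells. Against MSCV_A, where Nr4a1 averaged -0.69, the change was 2.05. Nr4a2 (0.18) and Nr4a3 (-0.08) were not called. Of 35 measured Nr4a and immediate early genes 7 rose and 1 fell, and over untreated cells 10 were higher and 3 lower. The 7 became 4 without MSCV_B replicate 4 and 3 against the 16 empty-virus arrays of both sets. Ier3 (1.89) and Gadd45b (1.76), a stress gene that activates p38 signalling, rose by more than Nr4a1 over MSCV_B, and the ERK phosphatase gene Dusp4 (0.98) by less, with 1.18, 1.11 and 1.25 over untreated cells. The ERK targets Egr1 (-0.72) and Fos (-0.03), which T cell activation induces, were not called over MSCV_B, and Egr1 was lower than in untreated cells (-1.27). Jun (0.07), Junb (-0.03), Egr2 (0.24) and Egr3 (0.09) were also not called. Against the 16 empty-virus arrays of both sets Gadd45b was no longer called (0.88).

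**Figure D2:**
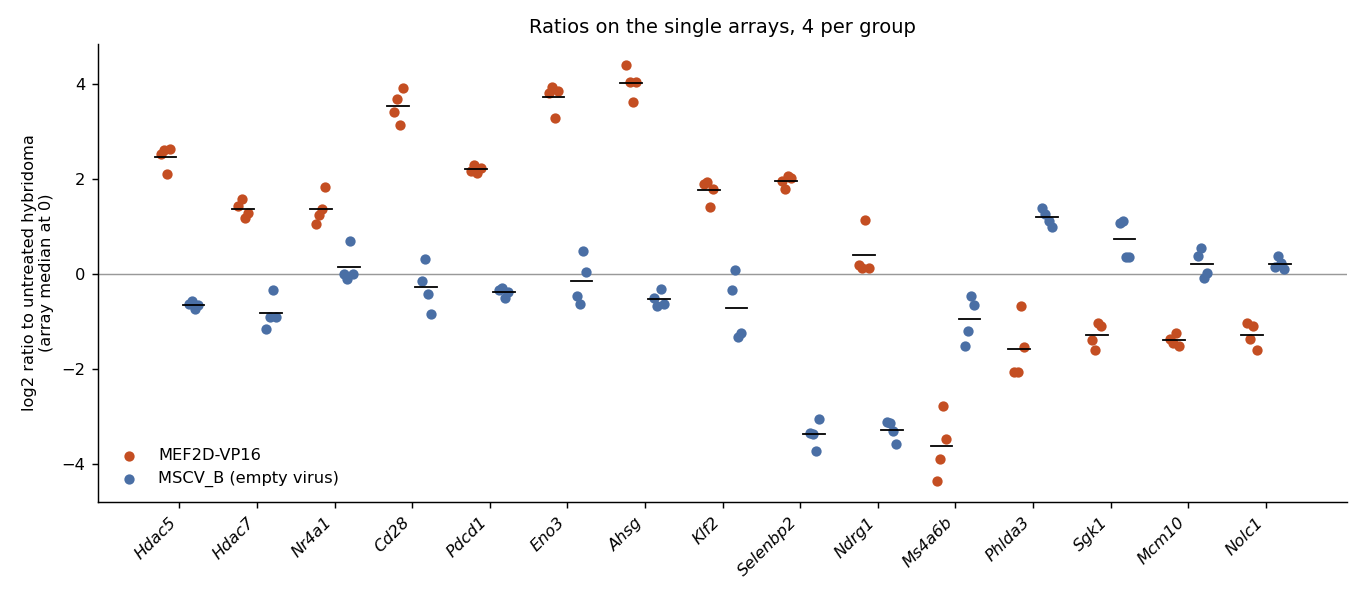
Points are the log2 ratios to untreated cells on the single arrays for 15 named genes, MEF2D-VP16 in orange left of MSCV_B in blue, with a bar at each group mean (n = 4). Hdac5, Cd28, Pdcd1, Eno3 and Ahsg are high with MEF2D-VP16 and not with MSCV_B, and Selenbp2 and Ndrg1 differ mainly through MSCV_B values below -3. Ms4a6b, Phlda3, Sgk1, Mcm10 and Nolc1 are low with MEF2D-VP16.

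The promoters of Hdac5 and Klf2 each hold a match to the MEF2 consensus, and Nr4a2, which was not called, holds another. They are shown because they are the 3 named genes with a match among the 83 with a window in RefSeq's promoter table for GRCm38.p6, which covers 250 bases before and 50 after each transcript start. Capitals mark the match, and the strand given is that of the gene.
Hdac5, chr11:102230123-102230422, minus strand: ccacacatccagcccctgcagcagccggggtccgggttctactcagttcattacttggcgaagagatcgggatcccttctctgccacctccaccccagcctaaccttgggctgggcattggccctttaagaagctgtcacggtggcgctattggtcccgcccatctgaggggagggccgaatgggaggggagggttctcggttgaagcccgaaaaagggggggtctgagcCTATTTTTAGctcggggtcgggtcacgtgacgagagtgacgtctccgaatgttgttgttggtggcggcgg
Klf2, chr8:72318812-72319111, plus strand: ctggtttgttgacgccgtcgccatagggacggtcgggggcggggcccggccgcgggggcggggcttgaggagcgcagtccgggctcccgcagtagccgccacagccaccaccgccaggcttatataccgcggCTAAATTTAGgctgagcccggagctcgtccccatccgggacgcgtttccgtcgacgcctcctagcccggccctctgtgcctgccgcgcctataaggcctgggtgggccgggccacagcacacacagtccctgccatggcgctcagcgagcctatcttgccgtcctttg
Nr4a2, chr2:57123954-57124253, minus strand: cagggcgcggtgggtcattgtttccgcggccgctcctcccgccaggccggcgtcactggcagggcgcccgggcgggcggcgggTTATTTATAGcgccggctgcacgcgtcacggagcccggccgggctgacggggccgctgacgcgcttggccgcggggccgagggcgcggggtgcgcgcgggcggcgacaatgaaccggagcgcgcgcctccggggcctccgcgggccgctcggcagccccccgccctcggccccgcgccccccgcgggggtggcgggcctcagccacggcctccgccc

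In Hdac5 the match begins 20 bases before the start and in Klf2 118 bases before it. Among the genes that rose at least 2-fold over MSCV_B and were also higher than untreated cells, 8 of 206 (3.88%) had a match, namely Hdac5, Klf2, Gpr146, Rcor2, Cstad, Elmo2, Zbtb18 and Bcar1. The corepressor gene Rcor2 rose by 1.64 and carries CTAAATTTAG, the same letters as Klf2, 206 bases before its start (window chr19:7267144-7267443). Gpr146, an orphan receptor gene that rose by 2.39, carries CTATTTTTAG, the letters of Hdac5, 51 bases before its start (window chr5:139377447-139377746). Elmo2, which encodes a partner of DOCK proteins in cell migration, rose by 1.33 and has CTATTTATAG at 249 bases before its start (window chr2:165320777-165321076). These last genes were picked for their match after their values were known.

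Matches were few in every class of genes. The shares were 3.05% of 590 genes that rose over both references, 1.15% of 607 that fell over both, 2.55% of 10486 measured genes with a window and 3.19% of all 32851 windows. Both strands were searched, and a gene counts once however many windows it has (1.38 windows a gene on average among those that rose, 1.26 among all measured). The windows of Nr4a1, Hdac7, Eno3 and Ahsg hold no match, which says only that these letters are not in them. The Nur77 half-site AAAGGTCA was in 1.69% of the genes that rose, 1.15% of those that fell and 1.52% of all measured genes (1.51% of windows). No test was made of these shares.

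Cd28, Eno3, Ahsg, Tmem273 and 2510009E07Rik rose over both references and over either empty-virus set. Cd28, the receptor that costimulates T cells, stood at 3.40, 3.68, 3.13 and 3.91 with MEF2D-VP16, against -0.16, 0.32, -0.42 and -0.84 with MSCV_B. It rose 14-fold (3.81, SE 0.25, adjusted p = 3.3e-05) and was at 3.53 over untreated cells. Eno3, the muscle form of the glycolytic enzyme enolase, stood at 3.80, 3.94, 3.28 and 3.84, against -0.46, -0.63, 0.48 and 0.03 in MSCV_B, a rise of 14.6-fold. Ahsg, which encodes the secreted glycoprotein fetuin-A of liver, stood at 4.40, 4.03, 3.62 and 4.03, against -0.51, -0.67, -0.32 and -0.63 in MSCV_B. For each of these genes the lowest MEF2D-VP16 array lay more than 2 log2 units above the highest MSCV_B array. Tmem273, a transmembrane protein gene with little known of its role, rose by 3.24 and a second probe of it by 2.93. The uncharacterised gene 2510009E07Rik rose by 3.30, with 2.84 over untreated cells.

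Striated muscle genes, classical MEF2 targets in muscle, were for the most part not called in this T cell line. Of 40 measured, 4 rose and 2 fell over MSCV_B, and over untreated cells 4 were higher and 1 lower. Those that rose were Eno3, Cox6a2 (2.76) and Cox7a1 (1.37), muscle forms of cytochrome oxidase subunits, and the myosin light chain gene Myl1 (0.77). Cox7a1 was not called with MSCV_A as control (0.45). The troponin gene Tnni1 fell by 1.59 on the log2 scale and the creatine kinase gene Ckm by 0.87. Myog, Myod1, Des, Acta1 and Myh7 lay between -0.08 and -0.01. The median over the list was at 0.01 over untreated cells, against 0.00 over all probes.

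Several T cell surface receptors changed, in both directions. Pdcd1, which encodes the inhibitory receptor PD-1, stood at 2.17, 2.28, 2.13 and 2.22 with MEF2D-VP16, against -0.35, -0.31, -0.52 and -0.38 with MSCV_B, and rose 6.03-fold (2.59, SE 0.11, adjusted p = 3.01e-06). Its arrays lay closer together than those of Cd28 (SD 0.07 against 0.34, n = 4 each). Tnfrsf18, the gene of the costimulatory receptor GITR, rose by 1.03 (0.98 over untreated cells). Tnfsf4, the gene of OX40 ligand, stood at -1.90, -1.39, -0.83 and -0.88, against 1.55, 1.25, 1.75 and 1.53 with MSCV_B. That fall of 2.77 was 1.25 relative to untreated cells, since MSCV_B lay above them. Of 31 measured costimulatory, inhibitory and TNF family genes 3 rose and 5 fell over MSCV_B, and 4 were higher and 6 lower over untreated cells. The 5 became 3 without MEF2D-VP16 replicate 1 or 2. Ctla4 (0.17), Icos (0.01), Lag3 (-0.11) and Cd40lg (-0.09) were not called.

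Among 34 genes of T cell receptor signalling, 5 rose and 2 fell, the falls being near the 6.16% of all probes that fell, and over untreated cells 6 were higher and 6 lower. Cd6, a scavenger-type receptor that binds ALCAM, rose by 1.88 (SE 0.17, adjusted p = 0.00017), and the adaptor gene Sla, whose product lowers surface T cell receptor, by 1.69. The kinase gene Zap70 (0.90), Cd2 (0.73) and Cd3e (0.47) rose as well. Sh2d2a, which encodes the T cell specific adaptor TSAd, stood at -2.12, -2.31, -1.50 and -1.79, against -0.07, 0.01, -0.16 and -0.48 with MSCV_B, and fell by 1.76. The adaptor genes Lat (-0.27) and Lcp2 (-0.03) and the factor gene Nfatc1 (0.00) were not called. Cd3e was not called with MSCV_A as control (0.62).

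In the group of chemokine, homing and integrin genes, 5 of 28 rose and 6 fell, and over untreated cells 6 were higher and 6 lower. The 6 falls became 3 without MEF2D-VP16 replicate 2 or 3 or MSCV_B replicate 1, and 2 against MSCV_A or the 16 empty-virus arrays of both sets. Cytip, whose product restrains integrin signalling through cytohesin-1, stood at 2.88, 2.44, 2.77 and 2.94, against 1.14, 1.20, -0.12 and 0.22 with MSCV_B, and rose by 2.15 (2.76 over untreated cells). The 2 higher MSCV_B values were the 2 Cy5-labelled arrays. Itgav (1.38), Ccr8 (1.23), Itgb7 (0.92) and Itgb2 (0.78) rose, and the chemokine genes and receptors Cxcr6 (-1.34), Ccl5 (-1.26) and Cxcr4 (-0.64) fell with Itgae (-1.06), Itgal (-0.81) and Icam2 (-0.51). A second probe of Itgav rose (1.15), whereas another was not called (0.29). Cxcr6 (-0.63) and Ccl5 (-0.57) lost their call against the 16 empty-virus arrays of both sets. Cytokine and cytokine receptor genes did not stand out from all probes, since of 29 only the STAT5 target Cish (0.92) rose and 2 fell, Il27ra (-1.50) and Tgfb1 (-0.60), where 6.40% and 6.16% of all probes did. Over untreated cells 2 were higher and 4 lower, and Cish lost its call in 5 of the 8 fits without 1 array. Il2, Il4 and Ifng lay between -0.01 and 0.18 over MSCV_B and were not called.

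The deepest falls included other surface receptors. Ms4a6b, a T cell gene of the MS4A membrane family, stood at -4.37, -3.91, -2.79 and -3.47 with MEF2D-VP16, against -1.52, -1.20, -0.46 and -0.66 with MSCV_B. It was the lowest of the named genes relative to untreated cells (-3.63), and fell 6.38-fold over MSCV_B. The inhibitory Fc receptor gene Fcgr2b fell by 2.25, the lysophosphatidylserine receptor gene P2ry10 by 2.04, Calcrl by 2.10, Tnfrsf8, the gene of CD30, by 2.00, and the folate receptor family gene Izumo1r by 1.89. A second probe of Izumo1r was not called (0.05). Gart, a purine synthesis enzyme gene, stood at -1.44, -1.53, -1.46 and -1.85, against 0.19, -0.02, 0.27 and 0.39 with MSCV_B. Of the 12 lowest genes called over both references, 10 also held against MSCV_A, against the 16 empty-virus arrays of both sets and in each fit without 1 array, and of the 12 highest, 7 did.

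Genes of growth fell in number. Of 25 measured genes of ribosome biogenesis and Myc, 16 fell and none rose over MSCV_B, and 20 were lower than in untreated cells. The list's median change was -1.13 over MSCV_B and -0.69 over untreated cells, against -0.01 and 0.00 over all probes. The median member lay at -0.77, -0.71, -0.73 and -0.81 on the MEF2D-VP16 arrays, against 0.15, 0.09, 0.18 and 0.16 on the MSCV_B arrays. Odc1, the rate-limiting enzyme of polyamine synthesis, stood at -1.57, -1.32, -1.48 and -1.54, against 0.28, -0.01, -0.14 and -0.16 with MSCV_B. The nucleolar phosphoprotein gene Nolc1 fell by 1.49, the helicase gene Ddx21 by 1.53, the PeBoW complex genes Wdr12 by 1.41 and Bop1 by 1.35, and the RNA polymerase I subunit genes Polr1b by 1.28 and Polr1a by 1.15. Myc itself (0.58; 0.19 over untreated cells), Npm1 (-0.03) and Ncl (-0.19) were not called. With MSCV_A as control 10 members fell, and Ddx21 was at -0.24.

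The E-box CACGTG, which Myc and Max bind, was in the windows of 5 of the 20 list members that have one (25%), namely Nop2, Utp20, Wdr43, Pes1 and Ran, of which the first 3 fell. It was in 15.3% of the genes that fell over both references, 10.0% of those that rose, 10.7% of all measured genes and 7.15% of windows. Cytosolic ribosomal protein genes did not follow the biogenesis genes. Of 49 measured, 1 rose (Rpl22, 1.36) and 1 fell (Rpl21, -1.15).

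Replication genes fell and genes of quiescence rose. Of 55 measured cell cycle and replication genes, 23 fell and 1 rose (Ccnd3, 0.53), and 35 were lower than in untreated cells. All 6 subunit genes of the MCM2-7 helicase fell, by 1.07 (Mcm4) to 1.48 (Mcm5) on the log2 scale, with the loading factors Cdc6 (-1.59), Cdt1 (-1.09) and Mcm10 (-1.60), the primase gene Prim1 (-1.60) and cyclin E gene Ccne1 (-1.68). Mcm10 stood at -1.37, -1.45, -1.25 and -1.52 with MEF2D-VP16, against 0.37, 0.54, -0.10 and 0.01 with MSCV_B, and a second probe fell by 1.21. Among the members of this list known from mitosis, Mki67 (-0.28), Plk1 (-0.27), Top2a (-0.20) and Ccnb2 (-0.22) were not called in either comparison, whereas Cdc20 (-0.93) and Nek2 fell. The counts kept their size with MSCV_A as control, where 23 members fell.

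Of 26 genes of quiescence and growth arrest, 11 rose and 1 fell (Foxp1, -0.44), and over untreated cells 12 were higher and none lower. Klf2, a factor that keeps T cells quiescent and guides their homing, stood at 1.90, 1.94, 1.40 and 1.78 with MEF2D-VP16, against -0.35, 0.07, -1.34 and -1.24 with MSCV_B. It rose by 2.47 and was at 1.75 over untreated cells, but it was not called with MSCV_A as control (0.88, adjusted p = 0.211), where Klf2 itself averaged 0.88. The Myc antagonist genes Mxd4 (1.98) and Mxi1 (1.73), the PI3 kinase inhibitor gene Pik3ip1 (2.00), Btg1 (1.44), Tob1 (0.96), the p130 gene Rbl2 (0.80) and the Cdk inhibitor gene Cdkn2d (0.89) rose. Pdcd4, a brake on translation, stood at 1.71, 1.75, 1.75 and 2.22, against -0.37, -0.69, -0.37 and -0.23 with MSCV_B. Cdkn1a was not called over MSCV_B (0.41), which had itself risen over untreated cells, and was higher than in untreated cells (0.92).

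**Figure D3:**
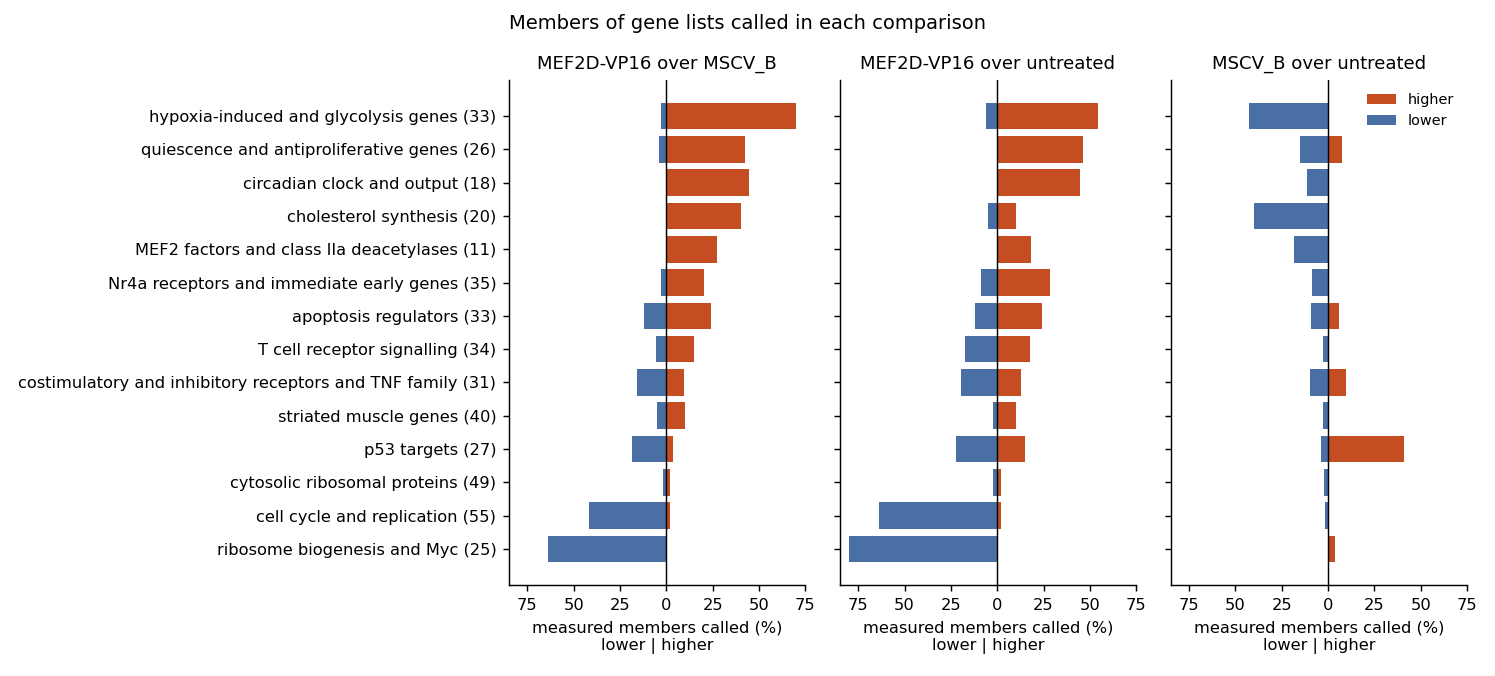
Bars give the share of measured members of 14 gene lists (number measured in brackets) called higher to the right, in orange, and lower to the left, in blue, for MEF2D-VP16 over MSCV_B, MEF2D-VP16 over untreated cells and MSCV_B over untreated cells. The ribosome biogenesis and cell cycle lists are low with MEF2D-VP16 over both references, whereas the hypoxia, cholesterol and p53 lists hold many members that moved in MSCV_B itself.

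The list of genes induced by low oxygen and of glycolysis gave the largest count of rises among the 28 lists, and the control set had moved the other way. Its members, Selenbp1 and Selenbp2 among them, were chosen with earlier results of these data known, so neither the count nor its rank is independent support. Of 33 measured, 23 rose and 1 fell (Pfkfb3, -0.57) over MSCV_B, and over untreated cells 18 were higher and 2 lower. In MSCV_B 14 members were lower than in untreated cells and none higher. Selenbp2, a selenium-binding protein gene, stood at 1.95, 1.78, 2.05 and 2.02 with MEF2D-VP16, against -3.36, -3.38, -3.74 and -3.06 with MSCV_B, which is 40.3-fold. Ndrg1, a hypoxia-induced gene, stood at 0.18, 0.12, 1.13 and 0.12, against -3.13, -3.14, -3.32 and -3.58 with MSCV_B. Ndrg1 was not called over untreated cells (0.38, adjusted p = 0.093), and its second probe was not called over MSCV_B (-0.20). Selenbp2 was at 2.43 against the 16 empty-virus arrays of both sets (adjusted p = 0.0782) and at 1.46 with MSCV_A as control. The mitophagy receptor gene Bnip3 rose by 2.54 over MSCV_B and was at 0.14 over untreated cells. Aldoc (1.37), Selenbp1 (1.90), Slc2a1, the gene of the glucose transporter GLUT1 (0.77), Pfkm (1.06) and Eno2 (0.99) were higher than untreated cells too.

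The median of this list over untreated cells was 0.39 with MEF2D-VP16 and -0.44 with MSCV_B. It was -0.31 with Nur77, -0.33 with HDAC7-VP16 and 0.13 with MSCV_A. With MSCV_A as control 9 members rose and 1 fell. Bnip3 turned to -0.19 there and Ndrg1 to 0.31. The abundant glycolysis genes Gapdh, Ldha, Pgk1, Pkm and Aldoa lay between 0.07 and 0.26 over MSCV_B and were not called.

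The cholesterol synthesis genes depended on the control set too. Of 20 measured, 8 rose and none fell over MSCV_B, but over untreated cells 2 were higher (Insig2, 0.68, and Stard4, 0.35) and 1 lower (Idi1, -0.67). The 8 members lower in MSCV_B than in untreated cells included Fdft1 (-0.83), Lss (-0.78) and Msmo1 (-0.78). The 8 rises became 5 without MSCV_B replicate 2 or 4, and none rose against MSCV_A or against the 16 empty-virus arrays of both sets. The integrated stress response genes Trib3 (1.13) and Ddit3 (0.91) rose over MSCV_B and lay at 0.04 and 0.10 over untreated cells. They turned to -0.47 and -0.17 with MSCV_A as control. Trib1, which encodes a pseudokinase, rose in each comparison (1.45; 1.43 over untreated cells; 1.53 with MSCV_A as control).

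**Figure D4:**
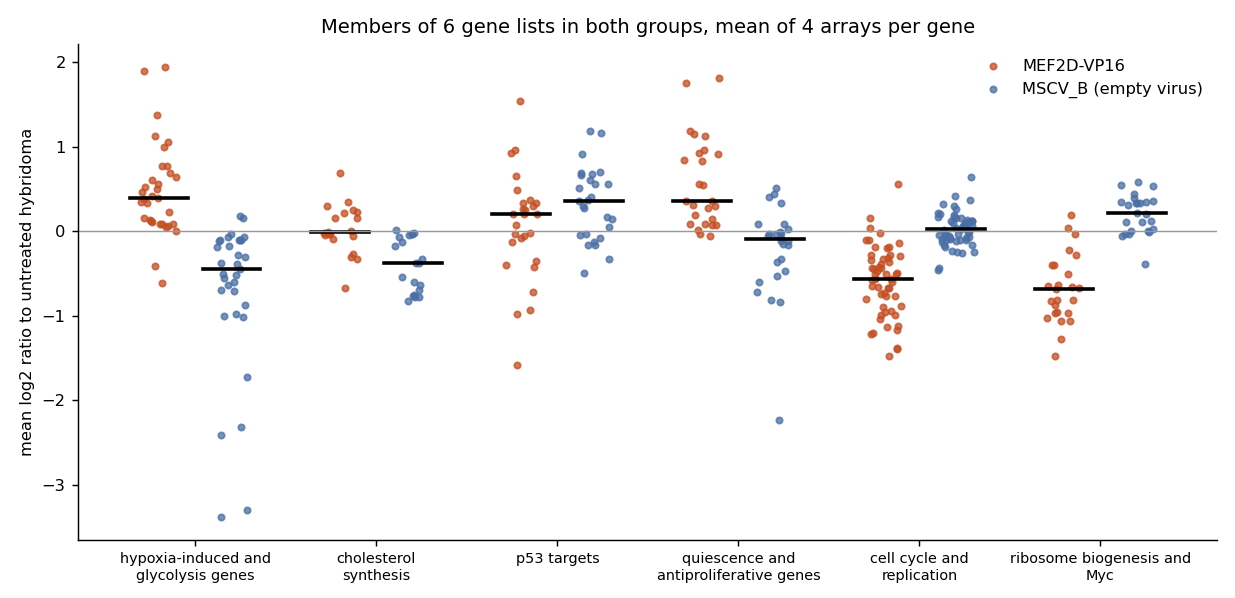
Points are genes of 6 lists at their mean log2 ratio to untreated cells over 4 arrays, with MEF2D-VP16 in orange left of MSCV_B in blue and a bar at the median over members. Cell cycle and ribosome biogenesis genes sit below 0 with MEF2D-VP16 (medians -0.56 and -0.69), whereas hypoxia and cholesterol genes sit below 0 in MSCV_B (medians -0.44 and -0.38).

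Targets of p53 were shifted in the control set in the other direction. In MSCV_B 11 of 27 were higher than in untreated cells and 1 lower, and over MSCV_B 5 fell with MEF2D-VP16 and 1 rose. Phlda3, an inhibitor of Akt, stood at -2.06, -2.06, -0.67 and -1.54 with MEF2D-VP16, against 1.39, 1.25, 1.11 and 0.99 with MSCV_B. The nuclease gene Aen fell by 2.14 and Gtse1, a regulator of p53 in G2, by 1.60. All 3 were also lower than in untreated cells (-1.58, -0.98 and -0.93), and Aen lost its call against the 16 empty-virus arrays of both sets (-1.03). Trp53inp1 rose (0.85; 1.54 over untreated cells), as one of 4 targets higher than in untreated cells beside 6 lower ones. Mdm2 (-0.31) and Ccng1 (-0.71) were not called over MSCV_B. Ccng2, the gene of the antiproliferative cyclin G2, rose by 3.38 over MSCV_B and by 1.15 over untreated cells, and was not called with MSCV_A as control (0.33).

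Of 33 apoptosis regulators 8 rose and 4 fell over MSCV_B, and 8 were higher and 4 lower over untreated cells. The 4 falls became 2 without MEF2D-VP16 replicate 1, 2 or 4 or MSCV_B replicate 1 or 4. The survival genes Bcl2 (0.95; 1.64 over untreated cells), Bcl2l2 (1.14) and Cflar (0.77) rose, as did the initiator caspase gene Casp9 (0.74). Bcl2l2 was not called with MSCV_A as control (0.57). Survivin's gene Birc5 (-0.94), Casp2 (-0.68), the cytochrome c gene Cycs (-0.96) and Bid (-0.64) fell. Bcl2l11, whose product Bim is known for its part in negative selection (0.05), Mcl1 (0.07) and Bcl2l1 (0.12) were not called.

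Of 18 clock and output genes 8 rose and none fell, and 5 rose without MEF2D-VP16 replicate 1 or MSCV_B replicate 1, 2 or 4. The output factor genes Dbp (1.51) and Nfil3 (1.48), the repressor genes Bhlhe40 (2.08), Bhlhe41 (1.02), Nr1d1 (0.69) and Per1 (0.71), and Rora (1.05) and Arntl (0.59) were also the 8 called over untreated cells. Bhlhe40 stood at -1.40 in MSCV_B, and with MSCV_A as control it (0.10) and Nfil3 (0.34) were not called, whereas Dbp (1.11) and Rora (1.53) were. Glucocorticoid-responsive genes were mixed, with 5 of 18 up, among them Tsc22d3 (1.39, but 0.12 and not called with MSCV_A as control), and 2 down, and 6 higher and 2 lower over untreated cells. The 5 became 2 without MSCV_B replicate 1 or 4 and 3 without MEF2D-VP16 replicate 4 or MSCV_B replicate 2. Sgk1, a kinase that this hormone induces, stood at -1.40, -1.61, -1.04 and -1.09, against 1.07, 1.11, 0.36 and 0.36 with MSCV_B, and fell by 2.02 (-1.29 over untreated cells).

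Of 28 genes of double-positive and mature thymocytes 6 rose and 3 fell, as many as were higher and lower over untreated cells. The 6 became 3 without MEF2D-VP16 replicate 1 or 2 or MSCV_B replicate 1, 2 or 4. Bcl6, a repressor needed for follicular helper T cells, stood at 1.97, 1.49, 1.02 and 1.22, against 0.34, 0.17, 0.24 and 0.28 with MSCV_B, and rose by 1.17. Gata3 (0.87), the CD4 lineage factor gene Zbtb7b (0.67) and Id3 (0.51) rose, and the factor genes Ets1 (-0.90) and Lef1 (-0.79) and the surface antigen gene Ly6c1 (-1.26) fell. Over untreated cells Ets1 was at -1.58, Gata3 at 0.54 and Bcl6 at 1.43, and Ly6c1 (-0.14), Lef1 (-0.34), Id3 (0.32) and Zbtb7b (0.25) were not called. Of 25 Notch pathway genes 3 rose and 2 fell, the falls being near the 6.16% of all probes that fell, and over untreated cells 4 were higher and 1 lower. Those that rose were Hes1 (1.85), Dtx2 (0.82) and Jag2 (0.56), with 1.20, 0.61 and 0.47 over untreated cells. The 2 falls became 0 without MSCV_B replicate 1 and 1 without MSCV_B replicate 3. Of 33 interferon-response genes 4 rose, among them the factor gene Irf1 (1.07) and Oas3 (1.06), and 6 fell, and over untreated cells 3 were higher and 2 lower. Of those that fell Ifit1, Oasl1 and Isg15 were higher in MSCV_B than in untreated cells and lay at -0.06, -0.24 and -0.16 with MEF2D-VP16. Of 49 subunit genes of oxidative phosphorylation 1 rose (Uqcrb, 0.69) and none fell.

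Ratios show whether markers differ, not whether a cell type is present. Of 10 T cell markers, 3 rose (Cd2, Bcl11b and Cd3e) and none fell, and Cd4 (0.14) and Thy1 (0.17) were not called. Over untreated cells 4 were higher and 1 lower. A second probe of Bcl11b was not called (0.37), and Cd3e lost its call in 6 of the 8 fits without 1 array. The summed log2 ratio over the 10 ran from 1.13 to 2.53 on the MEF2D-VP16 arrays and from -2.12 to 0.31 on the MSCV_B arrays. Of the markers of other cells, Ighm rose (0.63) among 9 B cell genes, Fcgr3 fell (-1.05) among 10 myeloid genes, Dcn fell (-0.69) among 11 fibroblast genes, and none of 5 erythroid genes was called. Over untreated cells 1 gene was lower in each of the B cell, myeloid and fibroblast lists, and none was higher. A second probe of Ighm was not called over MSCV_B (0.03), and Dcn lost its call in 6 of those 8 fits. The part of other cells in the changes above was not tested.

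The 2 pairs of MEF2D-VP16 slides gave changes of somewhat different size. Among probes that rose, the median change over MSCV_B was 0.82 on slides 21 and 22 and 0.73 on slides 11 and 12, and 62.3% were larger on slides 21 and 22. Among probes that fell the medians were -0.78 and -0.72, with 59.5% larger on slides 21 and 22. The gap was wide for single genes such as Izumo1r, at -3.14 and -2.41 on slides 21 and 22 but -1.15 and -1.82 on slides 11 and 12, and Tnfrsf8, at -2.16 and -2.12 but -0.34 and -1.59. Taken alone, slides 21 and 22 gave 1418 calls and slides 11 and 12 gave 881.

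HDAC7-VP16, the deacetylase fused to the same activation domain, allows the fusions to be compared, MEF2D-VP16 over MSCV_B and HDAC7-VP16 over MSCV_A. The difference of the 2 effects was called at 1544 probes (9.38%), 814 higher (4.94%) and 730 lower (4.43%) with MEF2D-VP16, in a fit of 30 arrays. Because the empty-virus sets differ, the direct difference of the fusions, each over untreated cells, is given as well. The fusions lie on differently numbered slides, so construct and slide cannot be told apart in it. The direct difference was called at 1658 of all 16463 probes, and 1033 of these were among the 1544. Of the 111 named genes 59 were called in the same direction both ways, 33 higher and 26 lower with MEF2D-VP16. The named genes were mostly taken for large changes with MEF2D-VP16, so their count cannot be read against that of all probes.

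For Cd28, Cytip, Pdcd1 and Cd6 the difference between the fusions was not called. Cd28 was at 3.81 with MEF2D-VP16 and 3.68 with HDAC7-VP16, each over its own empty virus, a difference of 0.13 with a 95% interval from -0.67 to 0.92. For Cytip the difference was -0.02 (-0.60 to 0.56), for Pdcd1 0.65 (-0.17 to 1.46) and for Cd6 -0.89 (-1.98 to 0.19). The changes themselves were between 1.88 (Cd6) and 3.81 (Cd28) with MEF2D-VP16, so the interval for Cd6 is wide. Nr4a1 rose less with MEF2D-VP16 than with HDAC7-VP16, at 1.23 and 3.28 (difference -2.05, SE 0.42, adjusted p = 0.00141; -1.23 directly). Hdac5 (difference 1.86, 1.10 directly), Hdac7 (1.77, 0.81 directly) and Ahsg (3.09, 2.06 directly) were higher with MEF2D-VP16. Whether the Hdac7 probe lies in the stretch the HDAC7-VP16 construct carries is not known here. Eno3 was not called for the difference of effects (1.79, adjusted p = 0.0662) and was called directly (1.57, adjusted p = 0.017).

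Of 8 named genes of ribosome biogenesis and replication, which the rule takes for their large falls with MEF2D-VP16, 7 were called lower than with HDAC7-VP16 both ways. Odc1 was at -1.48 over untreated cells with MEF2D-VP16 and at 0.08 with HDAC7-VP16, and Mcm10 at -1.40 and -0.05. The differences of effects were -1.44 (adjusted p = 1.56e-05) and -1.43 (adjusted p = 0.0156). Nolc1, Wdr12, Cdc6, Prim1 and Ccne1 were also lower both ways, as was the p53 target Gtse1, whereas Ddx21 was not called in the direct comparison (adjusted p = 0.119). Sh2d2a went in opposite directions, falling by 1.76 with MEF2D-VP16 and rising by 0.86 with HDAC7-VP16 (difference -2.62). Mxd4 (1.82), Pdcd4 (2.60), Pik3ip1 (1.84) and Dbp (2.09) were higher with MEF2D-VP16. The largest differences, Selenbp2 (7.44), Ndrg1 (6.65) and Ccng2 (5.37), lay in genes that were low in MSCV_B and with HDAC7-VP16, and they stood at 3.57, 3.28 and 2.31 in the direct comparison.

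**Figure D5:**
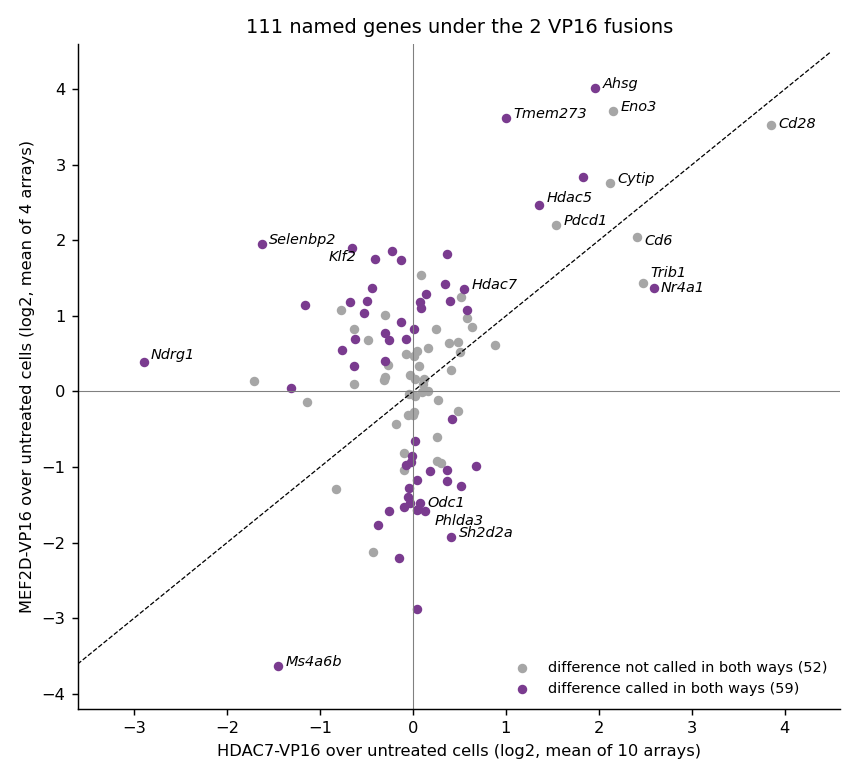
Each point is 1 of 111 named genes at its mean log2 ratio to untreated cells with MEF2D-VP16 (vertical axis, 4 arrays) and HDAC7-VP16 (horizontal axis, 10 arrays), purple where the difference was called in the same direction against the own empty-virus sets and directly, and the dashed line marks equal ratios. Cd28 and Cd6 lie near the line, Nr4a1 below it, and Odc1, Sh2d2a and Phlda3 lie low at ratios near 0 for HDAC7-VP16.

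Nur77 is the product of Nr4a1, so its arrays allow MEF2D-VP16 to be set beside that receptor in the same cells, and the direct difference avoids the empty-virus set they share. It was called at 2134 probes (13.0%), 1108 higher (6.73%) and 1026 lower (6.23%) with MEF2D-VP16. Of the 111 named genes, mostly taken for large changes with MEF2D-VP16, it was called at 78. Cd28 stood at 3.53 over untreated cells with MEF2D-VP16 and at 3.09 with Nur77 (difference 0.44, 95% interval -0.34 to 1.22). Pdcd1 was at 2.20 and 2.29 (difference -0.09, -0.40 to 0.21), Eno3 at 3.72 and 3.59 (0.13, -0.33 to 0.59), Cd6 at 2.05 and 2.07 (-0.03, -0.48 to 0.42), Tmem273 at 3.62 and 3.80 (-0.18, -0.71 to 0.35) and Ms4a6b at -3.63 and -3.54 (-0.09, -0.83 to 0.65). None of these differences was called, which does not show that the constructs act alike.

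Nr4a1 itself, which the Nur77 virus carries, stood at 1.36 with MEF2D-VP16 and at 4.24, 4.45, 3.18 and 6.12 on the Nur77 arrays. Ahsg was lower with MEF2D-VP16 than with Nur77, at 4.02 and 5.62 (difference -1.60, SE 0.33, adjusted p = 0.0118), and so was Bcl6, at 1.43 and 3.27. Cxcr6 differed in sign, at -0.86 with MEF2D-VP16 and 2.20 with Nur77 (difference -3.05, adjusted p = 0.000118). Tnfsf4, at -1.25 and 1.70, and Phlda3, at -1.58 and 0.95, differed in sign as well. For these genes MSCV_B itself stood at 1.52 (Tnfsf4) and 1.18 (Phlda3) over untreated cells. Nur77 was not called over MSCV_B for either (0.18 and -0.24). The deacetylase genes differed in sign too. Hdac5 stood at 2.46 with MEF2D-VP16 and at -1.14, -1.21, -1.06 and -1.25 on the Nur77 arrays. Hdac7 stood at 1.36 with MEF2D-VP16 and at -1.51, -1.53, -1.20 and -1.85 on the Nur77 arrays. MSCV_B was itself below untreated cells for both (-0.66 and -0.83), and Nur77 over MSCV_B was at -0.51 and -0.69. Klf2 (1.75 with MEF2D-VP16, -0.32 with Nur77), Odc1 (-1.48 and 0.05) and Mcm10 (-1.40 and -0.15) differed too, each with the difference called. Over MSCV_B, Nur77 was at 0.39 for Klf2, 0.06 for Odc1 and -0.35 for Mcm10.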

How the data were processed

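The values are log2 ratios of the series' value table, as deposited by the authors for 74 two-colour arrays and 16463 probes with no missing value. The sources used here do not give normalization, log base or direction. The log2 scale and transduced over untreated RNA are taken from the values and labels. Column medians lay between -0.021 and 0.023. Dye orientation comes from the titles, since the label fields name Cy3 for both colours. Probes were named from the platform annotation, where 14551 have 1 symbol, 6 several and 1906 none. No signal intensities were used, so dim probes could not be left out, and the number of arrays limits the precision.

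Each array was centred on its median. limma 3.58.1 (lmFit and eBayes, statmod 1.5.0, R 4.3.3) was fitted to all probes with group means and a dye term, for MEF2D-VP16 and MSCV_B together (8 arrays), with HDAC7-VP16 and MSCV_A (30 arrays) and for MEF2D-VP16 and Nur77 (8 arrays). Adjustment was over all probes, and the threshold was 0.05. The script was tested on simulated data. Lists of genes are described by counts, with no list test.

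Named genes were the MEF2, class IIa deacetylase and Nr4a genes, the 12 highest and 12 lowest genes called over both references, the 4 highest and 4 lowest called over MSCV_B but not over untreated cells, and up to 4 called members of each of 28 lists by size of change. The members and lists were chosen with earlier results of these data known. Genes outside the rule are named to describe lists or after a motif match. Promoter sequences and positions are RefSeq's, build GRCm38.p6. Alternatives changed the dye term, centring, scaling, variance model, arrays, control set, signs and threshold.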

Additional observations from a re-analysis of the deposited data

Results flagged for a closer look

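Of 222 groups of 4 arrays (111 named genes in MEF2D-VP16 and in MSCV_B), 8 had an array far from the other 3, and chance flags about 1 in 20 groups. Nr4a1 stood at 0.68 on MSCV_B replicate 3, with the others between -0.12 and 0.00. The change in Nr4a1 over MSCV_B ran from 1.10 to 1.37 when single arrays were left out. Ndrg1 stood at 1.13 on MEF2D-VP16 replicate 3, with the others between 0.12 and 0.18. On the same replicate Selenbp1 was at 1.81 (others 1.92 to 1.94), Mxd4 at 1.43 (others 1.92 to 1.99) and Dtx2 at 0.37 (others 0.68 to 0.73). Pdcd4 stood at 2.22 on MEF2D-VP16 replicate 4, with the others between 1.71 and 1.75. On MSCV_B replicate 1, Ifit1 stood at 1.78 (others 0.75 to 0.84) and Dcn at -0.17 (others 0.07 to 0.11).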

How the results depend on the processing

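The count over MSCV_B (2067) became 881 with slides 11 and 12 alone, 1006 at an adjusted p under 0.01 and 3164 with a dye term for each group, an alternative chosen after seeing the data. It ran from 1406 to 1860 without single arrays. With all 16 empty-virus arrays as control 1642 probes were called, 1167 of them shared, and with MSCV_A alone 1606, 1030 shared. With the sign of MSCV_B replicates 3 and 4 turned 2986 were called, of which only 1197 were shared with the 2067. The count over untreated cells (2600) ran from 1647, without MEF2D-VP16 replicate 2, to 2602. That of MSCV_B over untreated cells (341) was 200 with no dye term, 942 from its own 4 arrays, 914 with a dye term for each group, 2572 with the sign of replicates 3 and 4 turned, and 107 to 352 without single arrays, with 112, 129, 135 and 107 without MSCV_B replicates 1, 2, 3 and 4. The difference from HDAC7-VP16 (1544) ran from 1257 to 1493 without single arrays of MEF2D-VP16 or MSCV_B, or without 1 HDAC7-VP16 array. That array's source name differs from its title. No other HDAC7-VP16 array and no MSCV_A array was left out. The difference from Nur77 (2134) was 1311 with slides 21 and 22 alone, 717 with slides 11 and 12 alone, and 1355 to 2201 without single arrays, the lowest without Nur77 replicate 1. The causes were not tested. The other settings kept each of these counts within 1.5 times.

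Of 106 named genes called over MSCV_B, 93 kept their call in every fit without 1 array, and 58 (34 higher, 24 lower) also held over untreated cells and with MSCV_A and all 16 empty-virus arrays as control. With all 16 arrays 39 were no longer called, and Trib3 turned to -0.067. With MSCV_A alone 29 were no longer called, and the sign turned for Mef2b (-0.076), Bnip3 (-0.19), Gm20767 (0.068), Ly6c1 (0.032), Tgfb1 (0.13), Trib3 (-0.47) and Ddit3 (-0.17). With the sign of MSCV_B replicates 3 and 4 turned, 36 were no longer called, and Lbh (-0.33), Gm20767 (0.10), Ly6c1 (0.37) and Trib3 (-0.32) changed sign. No paired analysis was possible because the labels give slide numbers and no replicate numbers shared between the groups.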

Other observations

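Some genes differed from MSCV_B, did not differ detectably from untreated cells, and had moved in MSCV_B. Gm20767 stood at -0.14, 0.54, -0.02 and 0.29 with MEF2D-VP16, against 1.83, 2.16, 1.98 and 1.71 with MSCV_B. Cttn, the gene of the actin-binding protein cortactin, stood at 0.06, -0.35, 0.00 and -0.14, against 1.15, 0.96, 1.20 and 1.31, and a second probe of it was not called (0.25). Enc1 stood at -0.32, -0.27, 0.02 and -0.51, against 0.95, 1.00, 1.17 and 0.79. In MSCV_A these 3 genes averaged 0.10, 0.02 and -0.07.

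Lbh stood at 0.84, 0.38, 0.80 and 0.60 with MEF2D-VP16. In MSCV_B it stood at 0.27 and -0.04 on the Cy5-labelled and at -2.21 and -1.49 on the Cy3-labelled arrays. Calcrl stood at -2.02, -1.83, -1.05 and -1.23 with MEF2D-VP16. In MSCV_B it too was higher on the Cy5-labelled arrays (1.42 and 1.30) than on the Cy3-labelled ones (-0.55 and 0.08). Dye orientation coincides with the slide pairs of MSCV_B, so the cause of these splits was not tested.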
